A study of Mus musculus with 6 samples.

Results

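A set of 50 mouse genes for homeobox and PAX transcription factors outside the HOX clusters was read in CGN cultures with and without the EZH2 inhibitor GSK-126. The members were chosen by symbol, all 50 were found among the 55341 genes of the count tables, and none was left out for being silent. They comprised 14 Antennapedia class genes outside the HOX clusters, 10 LIM homeodomain genes, 8 PAX genes, 8 TALE genes, 8 paired-like genes and the sine oculis genes Six2 and Six3. The data were 6 poly-A RNA-seq libraries, 3 labelled DMSO and 3 labelled GSK-126, all labelled DIV3 (the third day in vitro) and all from CD1-IGS mice. By the study's methods, GNPs (granule neuron progenitors) were isolated from early postnatal cerebella of pooled litters on a Percoll gradient. Every culture, DMSO controls included, received AraC, which blocks the division of non-neuronal cells. The drug or its vehicle was added once at DIV3 and RNA was collected later, and the dose is not named for this experiment. The question was how these developmental regulators responded when EZH2 was inhibited in these cultures.

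EZH2 is the catalytic subunit of Polycomb repressive complex 2, which trimethylates lysine 27 of histone H3 (H3K27me3). Genes for homeobox and PAX regulators are textbook carriers of this mark in cells that do not use them, and their promoters are often rich in CG dinucleotides. In the cerebellum, Pax6, Barhl1, Meis1 and the engrailed genes belong to the granule lineage. Pax2, Lhx1 and Lhx5 mark inhibitory lineages, and genes such as Prrx1, Alx4 and Msx1 are better known from mesenchyme and the skull.

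The promoters of 3 genes are printed because the results turn on the opposite changes of the BarH-like pair and on a member that stayed at 0 counts. Each run is the 250 bases before the gene's first listed RefSeq start (build GRCm38.p6), read 5′ to 3′ on the gene's strand. Every CG dinucleotide is in capitals. Barhl1 has 2 listed starts, of which only the first is printed, and Barhl2 and Isl1 have 1 each. All 3 genes lie on the minus strand, with the windows at chr2:28916669-28916918 for Barhl1, chr5:106458167-106458416 for Barhl2 and chr13:116309689-116309938 for Isl1.
Barhl1: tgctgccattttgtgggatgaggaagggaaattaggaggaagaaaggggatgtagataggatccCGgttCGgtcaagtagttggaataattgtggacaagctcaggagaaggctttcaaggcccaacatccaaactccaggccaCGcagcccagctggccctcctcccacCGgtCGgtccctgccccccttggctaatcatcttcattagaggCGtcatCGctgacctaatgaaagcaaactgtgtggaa
Barhl2: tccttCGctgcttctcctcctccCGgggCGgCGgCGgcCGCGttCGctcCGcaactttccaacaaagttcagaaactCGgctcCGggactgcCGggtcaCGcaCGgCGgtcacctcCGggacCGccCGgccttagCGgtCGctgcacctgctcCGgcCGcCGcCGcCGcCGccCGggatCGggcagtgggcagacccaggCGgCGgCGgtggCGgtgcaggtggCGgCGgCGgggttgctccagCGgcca
Isl1: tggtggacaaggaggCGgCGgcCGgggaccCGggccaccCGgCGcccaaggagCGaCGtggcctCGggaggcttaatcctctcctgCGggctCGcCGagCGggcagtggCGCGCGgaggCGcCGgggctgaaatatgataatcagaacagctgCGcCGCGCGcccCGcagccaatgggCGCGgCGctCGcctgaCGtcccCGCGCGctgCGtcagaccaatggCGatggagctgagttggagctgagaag
The Barhl1 window held 7 CG, the Barhl2 window 36 and the Isl1 window 33. CG reads the same on both strands. No chromatin data were analysed here, so these letters only describe the windows.

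The libraries held between 7407189 and 13092763 counts on genes, and between 58.7% and 60.7% of the reads listed in a table were assigned to no gene. Levels are given as CPM on library sizes scaled by TMM factors, and levels of different genes are compared per kb of annotated exon. The 8 granule neuron markers summed to between 3580 and 6061 CPM with DMSO and between 2741 and 4552 CPM with GSK-126, so that the labelled cell type was present. Markers of other cells were present as well: 9 meningeal fibroblast markers summed to between 7308 and 10282 CPM and 6 astroglia markers to between 2011 and 7099 CPM over the 6 libraries. Atoh1, the defining gene of granule progenitors, was at or below 0.752 CPM in every library, and Gli1 of the same marker list at or below 1.12 CPM. Genes of dividing cells were read, however, with Mki67 between 74.2 and 135 CPM and Top2a between 78.0 and 125 CPM. The 6 granule progenitor and cycle markers, Atoh1 among them, summed to between 298 and 447 CPM over the libraries. Replicate 2 of both groups stood apart, with the highest granule neuron sum and the lowest astroglia and microglia sums of its group. Libraries with the same number deviated together from their group means (Pearson's r across genes of 0.56, 0.63 and 0.49). The fit below compares GSK-126 with DMSO within the replicate numbers, a pairing taken from the titles. The labels do not say whether same-numbered cultures came from the same pool of litters.

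Expression of the 50 genes spanned the range from strong to silent. All 50 together took between 0.0912% and 0.103% of the counts of a library. Of them, 25 had at least 10 counts in every library, 4 had 0 counts in all libraries, and 31 passed the filter on low counts and were tested. En2, which patterns the midbrain-hindbrain region and the cerebellum, led per length with 53.8 ± 11.5 CPM per kb (SD, n = 3) with DMSO and 37.1 ± 10.4 with GSK-126. Barhl1 and Barhl2, BarH-like factors of the rhombic lip and other neural lineages, came next. Barhl1 had 21.6 ± 0.94 CPM per kb with DMSO and 27.3 ± 5.35 with GSK-126, and Barhl2 had 23.3 ± 4.4 and 17.2 ± 4.83 (SD, n = 3 each). With DMSO the libraries' ranges of Barhl1 (20.6 to 22.4 CPM per kb) and Barhl2 (19.9 to 28.3) overlapped, so these neighbours in the order did not differ beyond their spread there. With GSK-126 they did not overlap, at 23.6 to 33.5 for Barhl1 and 14.3 to 22.8 for Barhl2. Pax6, the paired-domain factor of granule neurons and their progenitors, followed with 16.2 ± 1.90 CPM per kb with DMSO and 15.4 ± 1.44 with GSK-126 (SD, n = 3 each). The next 6 by mean level were Prrx2, Prrx1, Msx1, Irx1, Irx2 and Otx2, whose ranges over the 6 libraries overlapped one another, although within each group Otx2 lay below Prrx2. Mesenchymal members thus stood among the 10 highest beside the granule lineage genes.

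**Figure D1:**
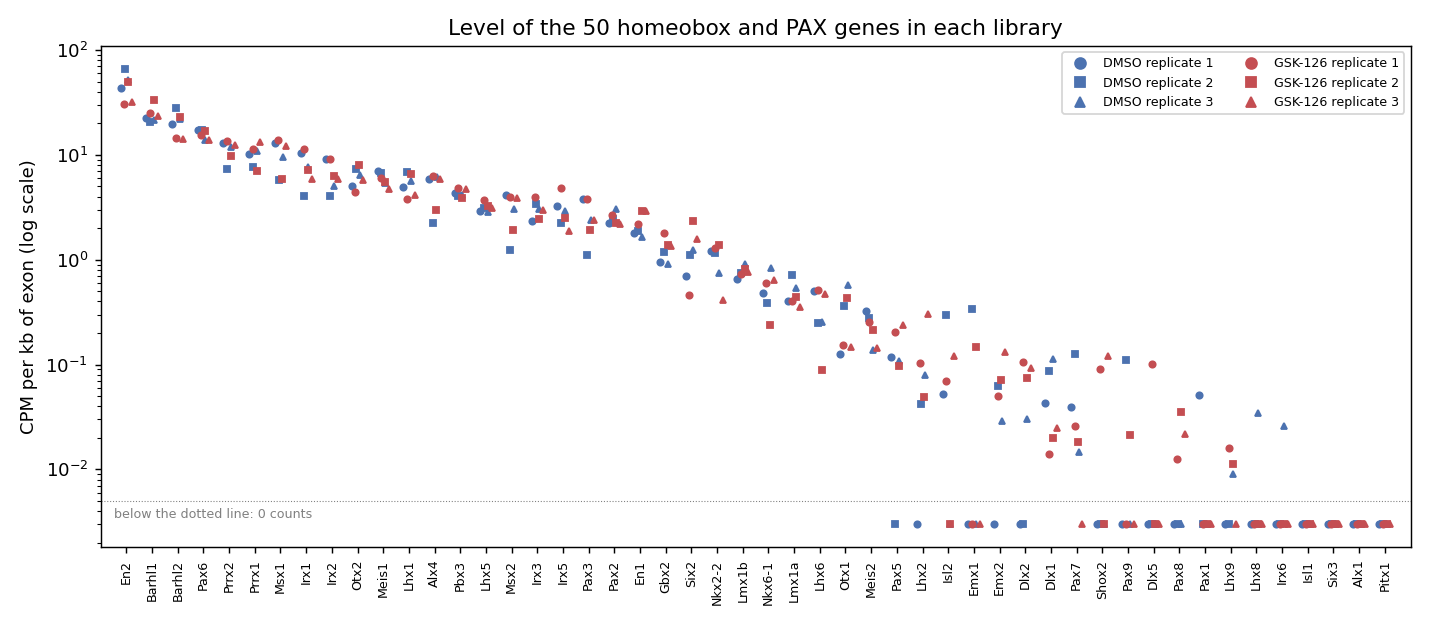
CPM per kb of exon on a log axis for the 50 genes in each of the 6 libraries, ordered by mean level, with blue for DMSO, red for GSK-126 and the marker shape for the replicate number. En2 lies highest, at 30.6 to 66.4 CPM per kb, and 4 genes at the right (Isl1, Six3, Alx1 and Pitx1) have 0 counts in all libraries.

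With GSK-126, 3 of the 31 tested members changed: En2 and Barhl2 fell and Barhl1 rose. The test was edgeR's quasi-likelihood test with the replicate number as a block, with Benjamini-Hochberg adjustment over the 16729 genes tested and calls at an adjusted p under 0.05. The members' share, 9.68%, was close to the background of 8.44% (1412 of all genes tested). The background was 3.35% higher (560 genes) and 5.09% lower (852 genes). The balance of the background depended on the scaling: with upper-quartile factors 727 genes were higher and 698 lower, and with total counts 714 and 707, with the same 3 members called in the same directions. At an unadjusted p under 0.05 there were 6 members, 19.4%, against 21.5% of all genes: Barhl1, Barhl2, En1, En2, Meis1 and Pax5. Without the block, edgeR called 0% of genes and 0 members, and the adjusted p of En2, Barhl1 and Barhl2 was 0.953. At an unadjusted p under 0.05 that fit had 665 genes, 2 of them members, and DESeq2 without the block called 21 genes and 0 members.

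The tested members lay on both sides of 0. Their median log2 fold change was 0.096 (19 above 0 and 12 below), beside -0.0057 for all genes tested, and within the 3 pairs it was 0.09, 0.092 and -0.0055. It was 0.0014 without pair 1 and 0.01 without pair 2. The sign was the same in all 3 pairs for 13 of 31 members (41.9%), against 42.2% of all genes. The CPM of the groups did not overlap for 4 members, Barhl1, En1, Gbx2 and Lhx5 (12.9%), against 9.43% of all genes. For a single gene, 3 against 3 libraries cannot go below p = 0.1 in a two-sided exact permutation test. By family, calls were made only in the Antennapedia class (3 of 9 tested). None was made among 4 PAX, 5 LIM homeodomain, 7 TALE, 5 paired-like genes and Six2, whose smallest adjusted p (edgeR) was 0.159, for Meis1. A difference between families was not tested.

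**Figure D2:**
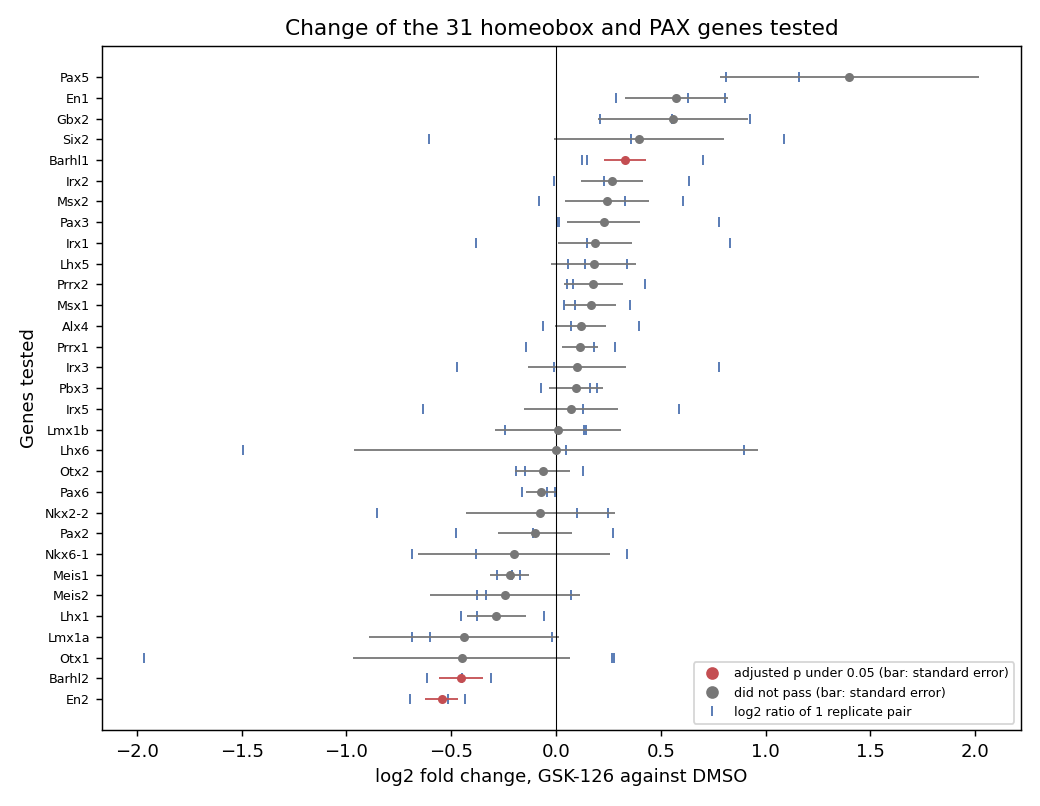
Log2 fold change of GSK-126 against DMSO for the 31 tested genes from edgeR with the replicate block, as a dot with its standard error, and the log2 ratio of each replicate pair as a tick (Pax5 has 2 ticks, since its count was 0 in DMSO replicate 2). En2 and Barhl2 lie below 0 and Barhl1 above it in all 3 pairs, and 28 of the genes, in grey, did not pass.

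Of the granule lineage, En2, Barhl1, Pax6 and Otx2 were among the 10 highest members per kb. En2 (ENSMUSG00000039095.8, chromosome 5, 28165694 to 28172166, GRCm38) had 155, 235 and 182 CPM in DMSO replicates 1 to 3 and 108, 174 and 112 CPM in the GSK-126 replicates. It was lower with GSK-126 in every pair, although GSK-126 replicate 2 lay above DMSO replicate 1, so that the groups overlapped. Its log2 fold change was -0.55 (SE 0.078, edgeR, adjusted p = 1.1e-04), so that it fell by 31.5%. It remained called without any 1 pair, with adjusted p between 6.3e-05 and 5.8e-04 (edgeR). In these bulk libraries, fewer cells of a type and less RNA per cell cannot be told apart. Of the 8 granule neuron markers, 7 fell as well, with log2 fold changes between -1.95 (Slc17a7, the vesicular glutamate transporter) and -0.31 (Zic1, a zinc finger factor of the lineage). Their part in the fall of En2 was not tested.

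En1, the paralogue of En2, was far weaker and differed in the other direction without passing. It had 4.72, 4.93 and 4.34 CPM with DMSO and 5.75, 7.63 and 7.60 CPM with GSK-126. All 3 GSK-126 libraries lay above all 3 DMSO libraries. The log2 fold change was 0.57 (SE 0.247, edgeR, adjusted p = 0.174). The ratio of En1 to En2 CPM was between 0.021 and 0.0305 with DMSO and between 0.0438 and 0.0677 with GSK-126. Its log2 change was 0.80, 1.06 and 1.505 in the 3 pairs (mean 1.12, SD 0.356), while En2 stayed by far the stronger gene. The ratio restates the CPM of the 2 genes given above and adds no separate test.

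Barhl1 (ENSMUSG00000026805.14, chromosome 2, 28907679 to 28916668), which is needed for survival and migration of granule neurons, had 87.6, 80.3 and 84.6 CPM with DMSO and 97.0, 130.6 and 92.3 CPM with GSK-126. The groups did not overlap, and GSK-126 replicate 2 was the highest by far. Its log2 fold change was 0.33 (SE 0.101, edgeR, adjusted p = 0.049), a rise of 25.5%. Without pair 2 the log2 fold change was 0.14 and the call was lost (edgeR, adjusted p = 0.437), and DESeq2 with the block gave an adjusted p of 0.112. The call therefore rested on the second pair and on the choice of test, and much of the size rested on the second pair. Barhl1 was higher with GSK-126 in all 3 pairs.

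Barhl2 (ENSMUSG00000034384.11, chromosome 5, 106452523 to 106458166), known from retinal and spinal neurons, had 46.0, 65.5 and 50.6 CPM with DMSO and 33.7, 52.8 and 33.0 CPM with GSK-126. It was lower in every pair, and the groups overlapped through replicate 2, which was highest in both. The log2 fold change was -0.45 (SE 0.105, edgeR, adjusted p = 0.0088), so that it fell by 26.9%. Without pair 3 it was -0.38 (edgeR, adjusted p = 0.0545), and DESeq2 with the block gave an adjusted p of 0.0257. The ratio of Barhl1 to Barhl2 CPM was between 1.23 and 1.90 with DMSO and between 2.48 and 2.88 with GSK-126. Its log2 change was 0.60, 1.01 and 0.74 in the 3 pairs (mean 0.78, SD 0.213). This ratio, too, only restates the CPM of genes already called. Of the other pairs of paralogues compared (Meis1 and Meis2, Prrx1 and Prrx2, Msx1 and Msx2, Otx2 and Otx1), the ratios of the groups overlapped in each.

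**Figure D3:**
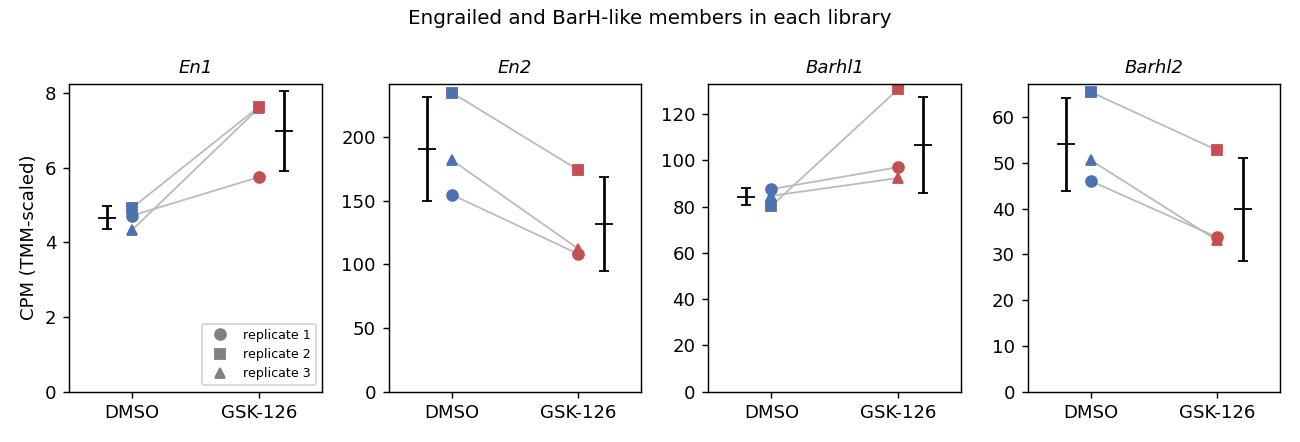
CPM of En1, En2, Barhl1 and Barhl2 in each library from an axis starting at 0, with grey lines joining libraries of 1 replicate number and black bars for the mean and SD of each group (n = 3). En2 and Barhl2 go down and En1 and Barhl1 go up from DMSO to GSK-126 in all 3 pairs, of which the change of En1 did not pass the test.

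The remaining members of the granule lineage did not pass. Pax6 had 201.5, 202 and 163 CPM with DMSO and 180.3, 196 and 163 CPM with GSK-126. The log2 fold change of -0.07 (SE 0.074, edgeR, adjusted p = 0.642) had the smallest standard error of the members. The libraries of both groups covered nearly the same range. Meis1, a TALE cofactor found in granule neurons, had 73.5, 70.6 and 56.2 CPM with DMSO and 63.5, 58.1 and 49.97 CPM with GSK-126. It was lower in all 3 pairs, with a log2 fold change of -0.22 (SE 0.092, edgeR, adjusted p = 0.159). Of its 10532 exonic bases, 896 overlap Gm16140 on the opposite strand and 1029 overlap Gm37818 on the same strand, where the strand setting of the counting is not given in the sources used here.

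Its relative Meis2 had between 1.65 and 3.91 CPM over all libraries, with a log2 fold change of -0.24 (SE 0.36). Pbx3, a partner of MEIS proteins, was steady, at 24.7 to 26.2 CPM with DMSO and 23.5 to 29.3 CPM with GSK-126 and a log2 fold change of 0.096 (SE 0.128). The Otx genes, which pattern the forebrain and midbrain, differed in level. Otx2 had 18.5 to 33.6 CPM and a log2 fold change of -0.064 (SE 0.131), and Otx1 had 0.69 to 3.12 CPM and a log2 fold change of -0.45 (SE 0.517). The value of Otx1 rested on pair 3, without which it was 0.27. Over the 9 granule lineage members the median log2 fold change was -0.07, with 1 higher call and 1 lower call (Barhl2 is not in that list).

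Genes of the midbrain-hindbrain boundary, the signalling centre from which the cerebellar field is set up, ranged in level per kb from En2, the highest of the 50, to Pax8, with 4 counts in all. Gbx2, which marks its hindbrain side, had 2.07, 2.60 and 1.99 CPM with DMSO and 3.93, 3.01 and 2.93 CPM with GSK-126. The groups did not overlap, but the log2 fold change of 0.56 (SE 0.358, edgeR, adjusted p = 0.394) did not pass. A large part of this gene, 946 of its 2177 exonic bases, overlaps D130058E05Rik on the opposite strand. Pax5, a boundary gene also known from B cells, had 9, 0 and 11 counts with DMSO and 24, 8 and 16 counts with GSK-126. Its log2 fold change of 1.40 (SE 0.618, edgeR, adjusted p = 0.188) was the largest of any member and rested on few counts. Its partner Pax8, also a thyroid and kidney factor, had 0 counts in the DMSO libraries and 1, 2 and 1 with GSK-126 and was not tested. Lmx1b, which is needed at the boundary and in dopaminergic and serotonergic neurons, had 3.22 to 4.42 CPM and a log2 fold change of 0.0093 (SE 0.303). Of the 8 boundary members, 7 were tested and En2 alone was called.

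Members of the cerebellar inhibitory lineages did not pass. Lhx1, a LIM homeodomain factor of Purkinje cells, had 19.9, 27.8 and 23.2 CPM with DMSO and 15.3, 26.8 and 16.9 CPM with GSK-126. It was lower in all 3 pairs, with a log2 fold change of -0.29 (SE 0.141, edgeR, adjusted p = 0.251). Its partner in these cells, Lhx5, had 7.63 to 8.37 CPM with DMSO and 8.39 to 9.90 CPM with GSK-126, and the log2 fold change was 0.18 (SE 0.203, edgeR, adjusted p = 0.669). Pax2, which marks precursors of the inhibitory interneurons, had 12.1 to 16.3 CPM with DMSO and 11.7 to 14.6 CPM with GSK-126, with a log2 fold change of -0.10 (SE 0.179). The GABAergic neuron markers Gad1, Gad2 and Slc32a1 fell, with log2 fold changes between -0.72 and -0.32, and their part in the values of these members was not tested. Purkinje markers were sparse, with Skor2 at 0 counts and the 6 together between 44.8 and 69.7 CPM. The smallest adjusted p of the 5 tested was 0.163, for Pcp2 (edgeR).

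Lmx1a, a roof plate gene that marks unipolar brush cells, had 1.20 to 2.42 CPM and a log2 fold change of -0.44 (SE 0.454). It was lower in all 3 pairs without passing. Eomes, the T-box marker of the same cells, fell with a log2 fold change of -0.85 (edgeR, adjusted p = 0.0308), and a part of these cells in the values of Lmx1a was not tested. Lhx2 and Lhx9, used by other glutamatergic neurons from the rhombic lip, had 24 and 4 counts over all libraries and were not tested.

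Members known from mesenchyme and the skull were expressed but did not pass. Prrx1, a paired-related factor of limb and craniofacial mesenchyme, had 112, 85.3 and 121 CPM with DMSO and 127, 77.4 and 148 CPM with GSK-126. The log2 fold change was 0.11 (SE 0.088, edgeR, adjusted p = 0.495). Prrx2, its paralogue, had 25.3, 14.3 and 23.2 CPM with DMSO and 26.8, 19.2 and 24.1 CPM with GSK-126. Alx4, an Aristaless-like factor of the frontonasal region and the skull, had 42.0, 15.9 and 43.3 CPM with DMSO and 44.2, 20.95 and 41.4 CPM with GSK-126. Replicate 2 was the lowest of its group for each of these genes. The log2 fold changes of Prrx2 and Alx4 were 0.18 (SE 0.14) and 0.12 (SE 0.122), and without pair 2 they were 0.07 and 0.0087. That of Prrx1 was 0.24 without pair 2 and 0.028 without pair 3.

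The BMP-responsive genes Msx1 and Msx2 had the same layout, with 17.7 and 4.09 CPM in DMSO replicate 2 against 29.4 or more and 10.1 or more in the other DMSO libraries. Their log2 fold changes were 0.17 (SE 0.123) and 0.25 (SE 0.201), which were 0.069 for Msx1 without pair 3 and 0.12 for Msx2 without pair 2. Pax3, a factor of the dorsal neural tube and neural crest, had 23.4, 6.88 and 14.7 CPM with DMSO and 23.6, 11.8 and 14.8 CPM with GSK-126, with a log2 fold change of 0.23 (SE 0.174). Nearly all of that came from pair 2, where the log2 ratio was 0.78 against 0.014 and 0.0045 in the others. Six2, best known from nephron progenitors, had 0.983 to 4.94 CPM and a log2 fold change of 0.40 (SE 0.406), which was -0.038 without pair 2.

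Replicate 2 was the lowest library in both groups for 10 of 31 tested members (32.3%), against 24.2% of all genes. These were Alx4, Lhx6, Msx1, Msx2, Nkx6-1, Pax3, Pax5, Pbx3, Prrx1 and Prrx2. It was the highest in both groups for 7 members (22.6%), against 26.6% of all genes: Barhl2, En1, En2, Lhx1, Lmx1a, Otx2 and Pax6. The meningeal fibroblast markers summed to 7308, 7693 and 9563 CPM with DMSO and 8904, 8054 and 10282 CPM with GSK-126, with replicate 2 lowest in the treated group only. Of those 9 markers, 1 was called, Slc6a13, with a fall of 0.61 on the log2 scale (edgeR, adjusted p = 0.0467). The other 8 had log2 fold changes above 0 without passing, and the median of the 9 was 0.11. The astroglia markers summed to 6704, 2086 and 3714 CPM with DMSO and 7099, 2011 and 3696 CPM with GSK-126. Of the 6, S100b and Gdf10 rose. The more abundant Gfap, Aqp4, Slc1a3 and Aldh1l1 did not pass, with log2 fold changes of 0.15, -0.15, -0.13 and 0.21. The median of the 6 was 0.18, with 4 above 0 and 2 below. The microglia markers ranged from 177 to 398 CPM with DMSO and from 254 to 488 CPM with GSK-126, and 2 of 6 rose. The part of these cells in the levels of the mesenchymal members was not tested.

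**Figure D4:**
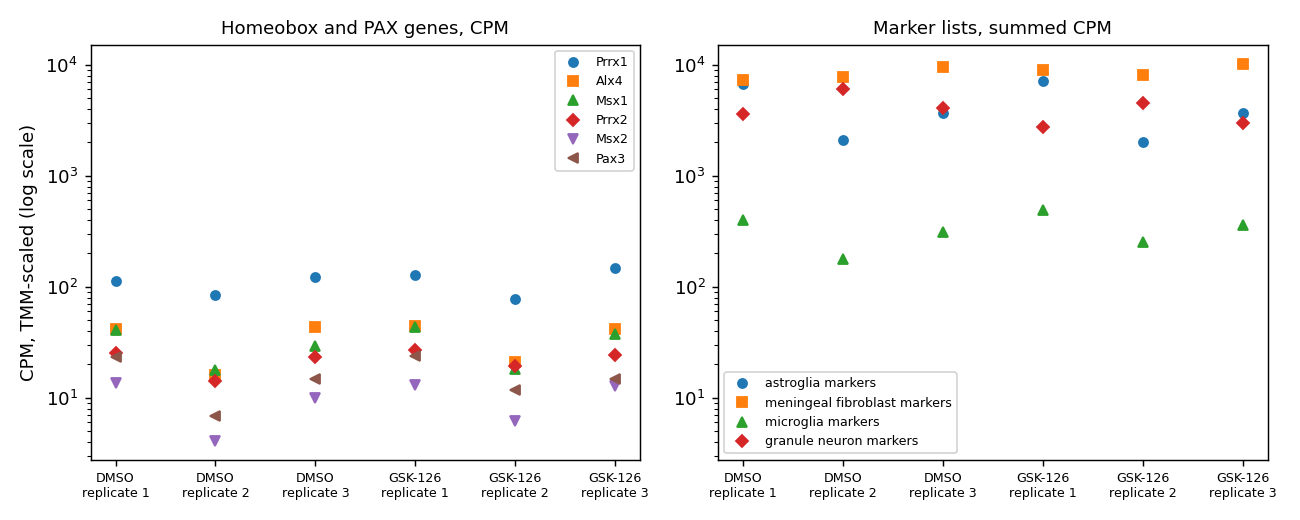
CPM on a log axis of 6 members in each library (left) and summed CPM of 4 marker lists in the same libraries (right). The 6 members, all taken from the 10 that are lowest in replicate 2 of each group, show that layout, as do the astroglia and microglia sums. The granule neuron sum is highest in replicate 2, and the meningeal fibroblast sum is lowest there with GSK-126 only.

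The Iroquois genes, TALE factors that lie in clusters on chromosomes 8 and 13 and act in neural patterning, varied between cultures. Irx1 had 27.0, 10.5 and 20.1 CPM with DMSO and 29.9, 18.7 and 15.5 CPM with GSK-126. Irx2, 665 kb away, had 30.3, 13.2 and 16.4 CPM with DMSO and 30.0, 20.5 and 19.2 CPM with GSK-126. Both were highest in replicate 1 of each group. Their log2 fold changes were 0.19 (SE 0.177) and 0.27 (SE 0.149), and without pair 2 they were -0.09 and 0.099. Irx3 and Irx5 on chromosome 8 had 6.44 to 11.04 and 5.86 to 15.2 CPM, with log2 fold changes of 0.10 (SE 0.234) and 0.071 (SE 0.226). Both values rested on pair 1, without which they were -0.23 each. Irx6, 298 kb from Irx5, had 1 count in all libraries, so that members of 1 cluster differed in whether they were read at all.

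Low members known from other regions of the nervous system completed the tested set. Nkx2-2, of the ventral neural tube and oligodendrocyte precursors, had 1.20 to 3.98 CPM and a log2 fold change of -0.074 (SE 0.354). Nkx6-1, of motor neuron progenitors and pancreatic beta cells, had 0.752 to 2.60 CPM and a log2 fold change of -0.20 (SE 0.458). Lhx6, of cortical interneurons, had 4 to 33 counts per library and a log2 fold change of 0.001 (SE 0.965). With standard errors of this size, the data at this depth could not resolve changes of the size seen for En2.

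The other 19 members did not pass the filter. Isl1, which directs motor neuron identity, Six3 of the forebrain and eye, Pitx1 of the hindlimb and Alx1 of the facial skeleton had 0 counts in all libraries. A count of 0 allows a level of up to 3 counts, or between 0.229 and 0.405 CPM depending on the library, by counting error only. Six3 lies 54.97 kb from Six2, which had 152 counts in all, and remained at 0. The other 15 had between 1 and 24 counts over all libraries, and no library held more than 10 counts of any of them. Forebrain genes were among these: the Dlx genes, which specify GABAergic neurons of the ventral forebrain, had 17 (Dlx1), 9 (Dlx2) and 3 (Dlx5) counts. The cortical genes Emx1 and Emx2 had 11 and 10 counts, and Lhx8 of the basal forebrain had 1. Isl2 had 12 counts, Pax7 of muscle and dorsal neural tube had 14, the sclerotome genes Pax1 and Pax9 had 2 and 7, and the limb gene Shox2 had 7.

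These genes stayed at a few counts in both groups. The 19 members together had 62 counts among 31414938 with DMSO (1.97 CPM) and 64 among 29691161 with GSK-126 (2.16 CPM). Of the 15 with counts, 9 had them in both groups, 3 only with GSK-126 (Pax8, Dlx5 and Shox2) and 3 only with DMSO (Pax1, Lhx8 and Irx6). Dlx1 had 2, 5 and 7 counts with DMSO and 1 in each GSK-126 library, while its neighbour Dlx2, 9.43 kb away, had 0, 0 and 1 with DMSO and 4, 2 and 2 with GSK-126. In an edgeR fit of 29476 genes without the filter, 0 of these 15 were called and 0 had an unadjusted p under 0.05, and the smallest adjusted p was 0.717. Changes of genes with so few counts were not detectable at this depth.

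A RefSeq promoter window was found for 38 of the 50 members, and for genes with several starts the first listed was used. The windows held a median of 15.5 CG (4 to 36), beside 6 for the 27025 genes with a window. At least 10 CG were present in 71.1% of the members' windows and in 38.2% of all. The 23 tested members with a window had a median of 16 CG and the 15 that were not tested had 13. Silent or nearly silent members were thus found at both ends of the CG range, as Isl1 with 33 CG and Lhx8 with 4 show. The BarH-like genes had windows of 7 and 36 CG, as the capitals in the printed sequences show.

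**Figure D5:**
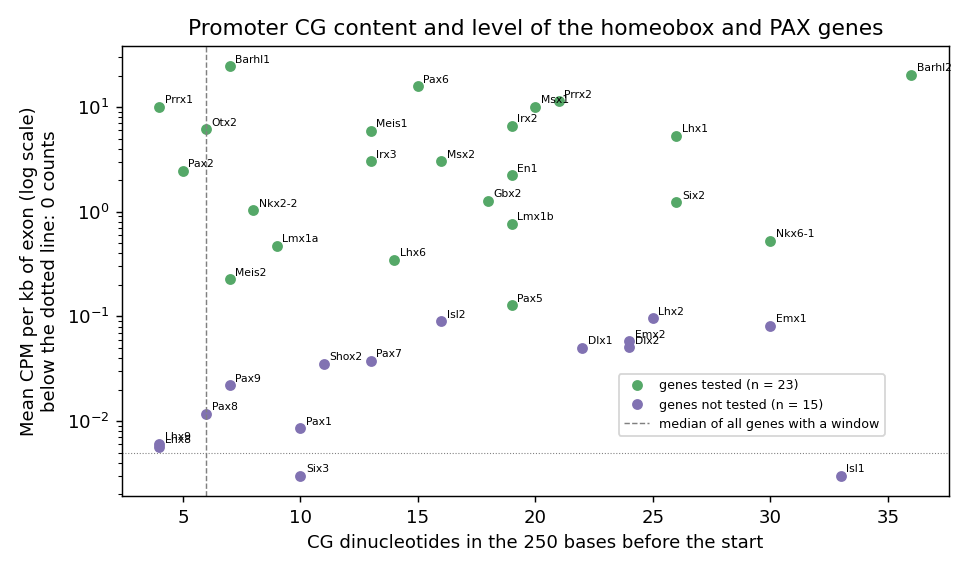
CG dinucleotides in the 250 bases before the start against mean CPM per kb of exon (log axis) for the 38 genes with a window, in green for those tested and purple for those not tested, with a dashed line at the median of all genes. Barhl1 (7 CG) and Barhl2 (36 CG) lie near the top and Isl1 (33 CG) below the dotted line that marks 0 counts.

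A list of 129 other homeobox and PAX genes outside the HOX clusters gave the wider family, of which 48 were in the tables and passed the filter. Of these, 6 were called (1 higher and 5 lower), beside 8.44% of all genes tested (3.35% higher and 5.09% lower). With upper-quartile factors or total counts, 4 were called (1 higher and 3 lower), and without pair 2 or without pair 3, 4 were called, all lower. Pou3f3, a POU factor of neural progenitors and neurons, rose with a log2 fold change of 0.38 (SE 0.1, edgeR, adjusted p = 0.0194). The 5 that fell were Tshz1, Satb1, Onecut2, Zfhx2 and Prox1, with log2 fold changes between -0.80 (Onecut2) and -0.28 (Zfhx2). Tshz1, a teashirt zinc finger factor, had 54.4, 94.7 and 75.2 CPM with DMSO and 40.5, 65.9 and 47.0 CPM with GSK-126 (log2 fold change -0.54, edgeR, adjusted p = 7.9e-04). Prox1, a prospero homeobox factor of young neurons, had 71.9, 73.8 and 80.1 CPM with DMSO and 52.5, 65.2 and 62.2 CPM with GSK-126, without overlap. The median log2 fold change of the 48 was -0.036, close to that of all genes tested.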

How the data were processed

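RNA of CGN cultures was compared between 3 DMSO and 3 GSK-126 libraries, grouped by their titles. The authors trimmed reads with Trimmomatic 0.38, aligned them to GRCm38 (mm10) with STAR 2.7.2b and counted reads on exons with HTSeq, and the deposited tables hold raw counts per gene. The strand setting and annotation release are not given in the sources used here; the 55341 symbols are those of GENCODE M21, which gave coordinates and exon lengths. Lines that name no gene (58.7% to 60.7% of listed reads) were left out.

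Counts were fitted in R 4.3.3 with edgeR 4.0.16 (TMM, filterByExpr, quasi-likelihood test, Benjamini-Hochberg), with the replicate number as a block. The numbers are shared by the titles of both groups, and same-numbered libraries deviated together (r of 0.49 to 0.63, against 0.0064 or less for the others). Deviations from a group mean cancel out within the group, so the low values of the others follow in part from the high ones. The biological coefficient of variation was 9.74% with the block and 24.0% without it. Standard errors come from the fit. DESeq2 1.42.0, other scalings, filters and thresholds, and leaving out each pair were alternatives.

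The members, lists, block and naming rule were chosen with earlier results of these data known. Named are members called or with an unadjusted p under 0.05, the 10 highest per kb, the granule lineage, every tested member, the members that were not tested, and called genes of the wider family. CPM and counts are limited by depths of 7407189 to 13092763, and limits set from 3 counts cover counting error only. A replicate is CGNs of pooled litters. The result of 1 marker gene is not reported here.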

Additional observations from a re-analysis of the deposited data

How the results depend on the processing

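The pairing decided the calls. Without the replicate block, edgeR called 0 genes, 0 members and 0 of the other homeobox and PAX genes, and DESeq2 without it, chosen after seeing the data, called 21, 0 and 0. The log2 fold changes hardly moved (En2 -0.54, Barhl2 -0.44 and Barhl1 0.34 in edgeR without the block). DESeq2 with the block called 2 members and 2 of the other genes and gave no adjusted p for 11 members, and an adjusted p under 0.01 left 720 genes in all and 2 of the others. With 1 pair left out, the calls over all genes ranged from 833 (without pair 2) to 1277, and the members' median log2 fold change ranged from 0.0014 to 0.16. Of the 31 tested members, 21 kept the sign of their log2 fold change under each of the 11 alternatives that gave a value for them, which for low members such as Pax5 was not all 11, and 10 did not. These were small or low values. With 1 pair left out, the log2 fold change ranged from -0.28 to 0.084 for Pax2, from -0.47 to 0.42 for Lhx6, from -0.050 to 0.14 for Lmx1b, from -0.038 to 0.75 for Six2, from -0.090 to 0.45 for Irx1, from -0.23 to 0.39 for Irx3, from -0.23 to 0.38 for Irx5, from -0.26 to 0.18 for Nkx2-2, from -0.68 to 0.27 for Otx1 and from -0.17 to 0.012 for Otx2. Without the block, Lmx1b was at -0.0065 in edgeR and -0.0049 in DESeq2 and Nkx2-2 at 0.012 and 0.011, and DESeq2 with the block put Lhx6 at -0.080. The cause was not tested. En2 lost its call only without the block. At least 5 or 20 counts in every library were reached by 29 or 22 members. With 3 pairs, low members are the least certain.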
